A study of Mus musculus with 9 samples.

Results

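The potassium channel genes of the mouse whole brain comprised 79 genes of the 53465 in the count table. They were found by gene name as the Kcn family, and had at least 10 counts in at least 3 of the 9 libraries. Of 98 names of this form, 6 were left out by name, among them Kcnj3, Kcnj6 and Kcnj9, and 13 were below the count minimum. The 79 members divided into 37 voltage-gated (Kv) pore subunits, 9 Kv auxiliary subunits, 10 inward rectifiers (Kir), 11 two-pore-domain leak channels (K2P), 10 genes of the calcium-activated and Slo class, and 2 non-coding RNAs (Kcnq1ot1 and Kcnmb4os2). Just inside the minimum were Kcnk15 (3 libraries), Kcnh8 (4) and Kcnq1 (5). Just outside were Kcnk16, Kcnn4 and Kcnv2, with 1 library each at 10 counts or more.

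RNA of the whole brain was sequenced from 3 CON, 3 DNP and 3 BAC mice, all male C57BL/6 and 7 weeks old at the start, with a library for each mouse. CON mice received saline. DNP mice, the model of diabetic neuropathic pain, ate a diet of 60% fat over 4 weeks, were injected intraperitoneally with streptozotocin (50 mg/kg for 7 days), which destroys insulin-secreting cells, and received saline. BAC mice were treated as DNP mice and received baclofen, a GABA-B receptor agonist, at 8 mg/kg intraperitoneally for 7 days in place of saline. Pain hypersensitivity was tested 4 weeks after streptozotocin, and blood glucose of at least 16.7 mmol/L defined diabetes. Diet, streptozotocin and diabetes were shared by DNP and BAC and absent from CON, so their effects cannot be told apart.

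Potassium channels let potassium leave the neuron and so set its resting potential, shape the action potential and limit repetitive firing. Kv channels open on depolarisation, Kir channels pass current near rest and in glia buffer potassium, K2P channels carry the resting leak, and calcium-activated channels couple firing to calcium entry. Baclofen acts on the GABA-B receptor, which opens a set of Kir channels through G proteins, and loss of potassium current in sensory pathways is a known feature of neuropathic pain models.

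Libraries held 13107382 to 16008129 counts. Mice of 1 group did not have like levels of brain-region markers. The 13 markers of brainstem and spinal cord summed to between 0.138 and 28.9 CPM (counts scaled to library size) in CON 1 to 3, DNP 2, DNP 3 and BAC 2, and to between 390 and 434 CPM in DNP 1, BAC 1 and BAC 3. Of the 13, 12 were at 0 counts in at least 1 library. The 12 cerebellar markers summed to 7034 CPM in CON 2, and to between 74.0 and 3516 CPM in the other 8 libraries, with Gabra6 and Fat2 at 0 in some. The 8 markers of cortex and hippocampus ranged from 384 CPM in BAC 3 to 4453 CPM in CON 1. The 10 neuronal markers were present in every library, at 5510 to 8487 CPM. Each comparison is therefore also given without DNP 1, BAC 1, BAC 3 and CON 2, and with the cerebellum and brainstem scores as covariates. In RNA of whole tissue, fewer cells of a type and less RNA per cell cannot be told apart.

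Levels were compared between genes as FPKM, which is scaled to gene length. Among Kv pore subunits, Kcnc1, known from fast-spiking neurons, had a mean level of 41.2 FPKM over the 9 libraries, and Kcnh3 of 35.9 FPKM. Kcnab2, a beta subunit of Kv1 channels, led the auxiliary subunits at 36.3 FPKM, followed by Kcnip3, a calcium-binding partner of Kv4 channels, at 26.8 FPKM. The glial potassium-buffering channel Kcnj10 had the highest mean level of all members, 51.7 FPKM, and Kcnj4, an inward rectifier of forebrain neurons, the second among Kir genes at 44.1 FPKM. Kcnk1 at 31.2 FPKM and the acid-sensitive leak channel Kcnk9 at 21.9 FPKM led the K2P class. In the calcium-activated and Slo class the sodium-activated channel Kcnt1 (15.7 FPKM) and the neuronal BK beta subunit Kcnmb4 (12.7 FPKM) were highest. In each class the ranges of the 2 genes over libraries overlapped. The lowest means belonged to Kcnj5 (0.156 FPKM) and Kcnq1 (0.162 FPKM).

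**Figure D1:**
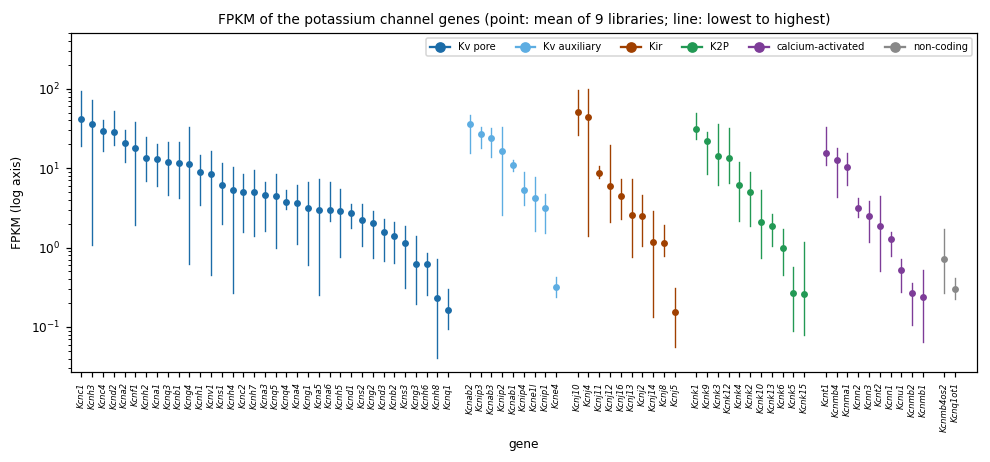
FPKM of 77 potassium channel genes on a log axis, grouped by class. Points are means of the 9 libraries and lines run from the lowest to the highest library. Kcnj10 had the highest mean, 51.7 FPKM, and the long lines of Kcnj4 (1.39 to 98.4 FPKM) and Kcnh3 (1.08 to 71.8 FPKM) show how far single libraries lay apart.

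The summed FPKM of the 37 Kv pore subunits was 410, 444 and 412 in CON, 324, 336 and 296 in DNP, and 372, 343 and 321 in BAC. The CON libraries lay above all DNP and BAC libraries. For the 10 calcium-activated and Slo genes the sums were 54.7, 69.0 and 57.2 in CON, 33.2, 49.9 and 50.0 in DNP, and 45.0, 48.4 and 30.8 in BAC, again with CON above the others. The sums of the K2P class (CON 89.5, 157 and 100, DNP 92.5, 70.1 and 75.6, BAC 119, 72.2 and 99.5) and of the Kir class (CON 122, 85.6 and 108, DNP 128, 149 and 110, BAC 134, 142 and 124) overlapped between CON and DNP. These sums carry the weight of the few highest genes, and no test was made on them.

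DNP was compared with CON to ask which potassium channel genes differ in the brain of the pain model. None of the 79 members passed an adjusted p of 0.05 by edgeR or by DESeq2, where edgeR called 0% and DESeq2 1.87% of the 18501 tested genes. The smallest adjusted p of a member was 0.327 by edgeR. At an unadjusted p under 0.05, 8 members were counted (10.1%) beside 11.2% of all genes, 1 higher and 7 lower in DNP. DESeq2 counted 11 at this p (13.9%), beside 13.1% of all genes. By edgeR the 7 lower members were 8.86% of the 79, and among all genes 5.71% were higher and 5.46% lower at this p. The groups did not overlap in 7 members (8.86%), beside 18.2% of all genes. In DNP 2 of them were higher (9.59% of all genes) and 5 lower (8.63% of all genes). Members had a median log2 fold change of -0.13, against 0.01 for all genes. It was -0.33 in Kv pore subunits (23 of 37 lower), 0.28 in Kv auxiliary subunits (3 of 9 lower), 0.26 in Kir (3 of 10 lower), -0.10 in K2P (7 of 11 lower) and -0.25 in the calcium-activated and Slo class (6 of 10 lower). Without CON 1 the Kv pore median was 0.05, with 17 of 37 lower.

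Kcnma1 encodes the pore of the BK channel, which opens on voltage and calcium and ends the action potential. The gene (ENSMUSG00000063142) lies at chr14:23289431-24014491 on the minus strand of GRCm38. It measured 369, 271 and 372 CPM in CON, 164, 237 and 233 CPM in DNP, and 189, 229 and 139 CPM in BAC. Every CON library lay above every DNP and BAC library. The log2 fold change in DNP versus CON was -0.68 ± 0.24 (SE, n = 3 mice per group, edgeR adjusted p = 0.380). With the scores as covariates it was -0.74, and without DNP 1, BAC 1, BAC 3 and CON 2 it was -0.66. Its partner subunits Kcnmb4 (62.2, 67.3 and 60.3 CPM in CON, 23.3, 63.2 and 68.7 CPM in DNP) and Kcnmb2 overlapped between the groups.

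Kcnk13, a K2P channel that in the brain is known from microglia, was the 1 member of the 8 that was higher in DNP. The gene (ENSMUSG00000045404) lies at chr12:99964499-100062682 on the plus strand of GRCm38. It measured 9.22, 6.49 and 7.02 CPM in CON, 14.3, 11.4 and 14.3 CPM in DNP, and 14.9, 10.4 and 16.2 CPM in BAC. The CON libraries lay below all others. The log2 fold change was 0.81 ± 0.23 (SE, n = 3 mice per group, edgeR adjusted p = 0.327). With the scores as covariates it was 0.26 (adjusted p = 0.740), and without the 4 libraries 0.66. Of 7 microglial markers, 6 were higher and 0 at an unadjusted p under 0.05 in DNP, and they summed to 149 to 273 CPM in CON and 270 to 318 CPM in DNP. The 8 oligodendrocyte markers were all higher in DNP at an unadjusted p under 0.05 (2205 to 3087 CPM in CON, 3696 to 9185 CPM in DNP), as were the 4 red blood cell markers (173 to 200 CPM in CON, 436 to 637 CPM in DNP). The part of these cells in the value of Kcnk13 was not tested.

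The set of RefSeq (GRCm38.p6) start sites used here, matched by gene name, covered 56 of the 79 members, with 78 windows. The 250 bases before the start of Kcnma1 and Kcnk13 are shown, since these genes had the 2 smallest p of the members in both DNP versus CON and BAC versus CON. Capitals mark GGGCGG or its reverse complement CCGCCC, the GC box letters. The windows are chr14:24004206-24004455 (minus strand) for Kcnma1, whose outermost GENCODE start lies upstream of it, and chr12:99964249-99964498 (plus strand) for Kcnk13.
Kcnma1: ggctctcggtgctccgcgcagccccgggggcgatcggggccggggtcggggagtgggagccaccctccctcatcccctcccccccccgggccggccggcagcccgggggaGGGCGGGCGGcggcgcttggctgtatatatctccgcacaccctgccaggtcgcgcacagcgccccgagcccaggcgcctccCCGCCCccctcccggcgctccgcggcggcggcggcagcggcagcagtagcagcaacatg
Kcnk13: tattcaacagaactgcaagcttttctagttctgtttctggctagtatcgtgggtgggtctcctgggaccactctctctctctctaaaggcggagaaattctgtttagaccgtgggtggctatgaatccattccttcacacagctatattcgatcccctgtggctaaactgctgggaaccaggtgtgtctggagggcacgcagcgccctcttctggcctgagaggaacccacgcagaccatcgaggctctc
The Kcnma1 window held 3 GC boxes, 2 of them overlapping, and 31 CpG dinucleotides. The Kcnk13 window held 0 GC boxes and 8 CpG. The letters were found on either strand in 38 of the 78 member windows (48.7%) and in 32.7% of all 32851 windows of the same length. TATAAA was found in 2 member windows (2.56%), those of Kcnj13 and Kcnj16, and in 12.4% of all windows, and the full cyclic AMP response element TGACGTCA in 0 and in 1.55%.

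Among the Kv pore subunits lower in DNP at an unadjusted p under 0.05 were Kcnd3 and Kcna3. Kcnd3, a Kv4 subunit of the A-type current, measured 21.0, 26.9 and 22.0 CPM in CON, 19.8, 11.3 and 8.14 CPM in DNP and 21.0, 17.1 and 20.5 CPM in BAC. All DNP values lay below CON, with DNP 1 closest to it. Its log2 fold change was -0.83 ± 0.30 (SE, edgeR adjusted p = 0.383). Kcna3, a Kv1 subunit also found in lymphocytes and microglia, measured 11.3, 7.84 and 13.2 CPM in CON and 8.33, 6.42 and 3.09 CPM in DNP, with overlap between the groups (log2 fold change -0.86 ± 0.37, edgeR adjusted p = 0.441). Kcnd2, the other main A-type subunit, measured 137, 272 and 140 CPM in CON and 99.7, 135 and 103 CPM in DNP. The groups did not overlap, but its adjusted p was 0.453 in edgeR. With the scores as covariates the log2 fold change of Kcnd2 was 0.35 ± 0.38 (SE). The axonal Kv1 genes Kcna1 and Kcna2 had log2 fold changes of -0.62 and -0.49, and Kcnq3, a subunit of the M-current that limits repetitive firing, of -0.48, none at an unadjusted p under 0.05.

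In the K2P class, Kcnk9 measured 30.5, 33.7 and 35.1 CPM in CON, 28.0, 10.3 and 12.4 CPM in DNP and 33.3, 21.2 and 33.4 CPM in BAC. DNP lay below CON in all libraries, DNP 1 by little, and BAC 1 and BAC 3 lay within the CON range. The log2 fold change in DNP versus CON was -0.97 ± 0.37 (SE, edgeR adjusted p = 0.392), -1.35 with the scores as covariates and -1.53 without the 4 libraries. Kcnk12, a K2P subunit closely related to Kcnk13, measured 22.4, 61.7 and 30.6 CPM in CON and 22.4, 17.1 and 16.3 CPM in DNP (log2 fold change -1.04 ± 0.42, edgeR adjusted p = 0.418). The highest value was that of CON 2. With the scores as covariates the log2 fold change of Kcnk12 was 0.14, and without the 4 libraries, CON 2 among them, it was -0.67. Kcnk1 and Kcnk2, a mechanically gated and heat-sensitive leak channel, had log2 fold changes of -0.26 and -0.04, which became 0.40 and -1.24 with the covariates.

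Kcnj12, a strong inward rectifier, measured 13.9, 90.9 and 22.5 CPM in CON, 16.7, 12.6 and 9.85 CPM in DNP and 46.9, 14.1 and 24.9 CPM in BAC. CON 2 set the CON mean, and the log2 fold change of -1.70 ± 0.71 (SE, edgeR adjusted p = 0.427) became 0.84 with the scores as covariates. Kcnj10 measured 156, 203 and 173 CPM in CON, 482, 172 and 158 CPM in DNP and 496, 147 and 504 CPM in BAC. The 3 high values were those of DNP 1, BAC 1 and BAC 3, the libraries with brainstem markers. Its partner in glia, Kcnj16, was at 51.7 to 60.8 CPM in those 3 libraries and at 18.6 to 30.9 CPM in the other 6. The score of the 9 astrocyte markers was also highest in these 3 libraries (0.21 in DNP 1, 0.52 in BAC 1 and 0.43 in BAC 3, against -0.44 to 0.17 in the others). Gfap, an astrocyte filament gene, was at 386 to 588 CPM in the 3 and at 146 to 207 CPM in the other 6, whereas the markers summed to 3287 to 3745 CPM in the 3 and to 2634 to 4194 CPM in the other 6. The part of astrocyte RNA in Kcnj10 and Kcnj16 was not tested. Kcnj13, a channel of epithelia including choroid plexus, measured 5.44, 2.64 and 6.04 CPM in CON and 1.37 to 4.79 CPM in DNP, and was highest in BAC 1 (10.6 CPM). Choroid plexus markers summed to 1266 CPM in BAC 1 and 1392 CPM in DNP 3, and to 25.9 to 519 CPM in the other libraries. Most of this was Ttr, at 1162 CPM in BAC 1 and 1332 CPM in DNP 3. The score of the 7 markers was also highest in BAC 1 (1.88) and DNP 3 (1.31). In DNP 3, however, Kcnj13 lay below CON 1 and CON 3. The part of choroid plexus RNA in Kcnj13 was not tested.

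**Figure D2:**
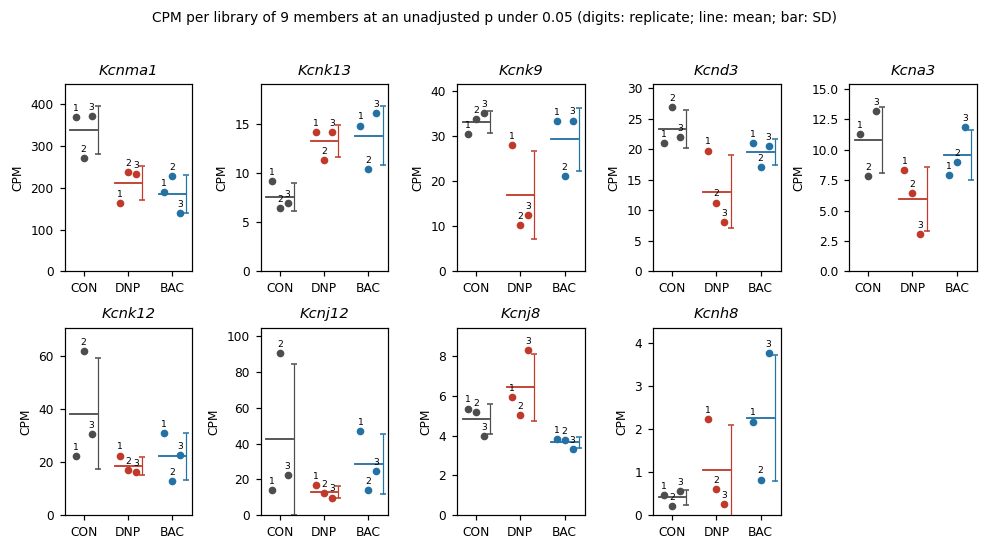
CPM per library of 9 members at an unadjusted p under 0.05 in a comparison, in CON, DNP and BAC. Points are libraries with their replicate number, lines are means and bars are SD (n = 3). Kcnma1 (271 to 372 CPM in CON) and Kcnk13 (6.49 to 9.22 CPM in CON) separate CON from both other groups, while in Kcnk12 and Kcnj12 CON 2 lies far above the other CON libraries.

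BAC was compared with DNP to ask which members differ after baclofen. None passed an adjusted p of 0.05 by edgeR (0% of all genes) or DESeq2 (0.0378% of all genes), and the smallest adjusted p of a member was 0.998. By edgeR 1 member was at an unadjusted p under 0.05 (1.27%, lower in BAC beside 1% of all genes, against 0 higher beside 1.37%) and by DESeq2 2, beside 2.37% and 2.96% of all genes. The groups did not overlap in 3 members (3.80%), beside 6.79% of all genes. All 3 were lower in BAC (3.41% of all genes) and 0 higher (3.38%). These were Kcnj8, Kcnk6 and Kcnmb2. The median log2 fold change was 0.00 in members and -0.01 in all genes, with 8 of 10 calcium-activated and Slo genes and 21 of 37 Kv pore subunits lower.

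Kcnj8 forms the pore of the ATP-sensitive channel of pericytes and vascular muscle. The gene (ENSMUSG00000030247) lies at chr6:142564837-142571614 on the minus strand of GRCm38. It measured 5.37, 5.20 and 4.00 CPM in CON, 5.94, 5.05 and 8.34 CPM in DNP and 3.85, 3.80 and 3.34 CPM in BAC. All BAC values lay below all others. The log2 fold change in BAC versus DNP was -0.81 ± 0.25 (SE, n = 3 mice per group, edgeR adjusted p = 0.998). With the scores as covariates it was -0.77, and without the 4 libraries -0.80 (adjusted p = 0.862, BAC 2 alone in BAC). Pericyte markers were lower in BAC in 6 of 6 (0 at an unadjusted p under 0.05), with sums of 153 to 256 CPM in DNP and 150 to 197 CPM in BAC. Endothelial markers were lower in 6 of 6 (3 at an unadjusted p under 0.05), with sums of 188 to 272 CPM in DNP and 154 to 196 CPM in BAC. Their part in the value was not tested. Kcnj11, the ATP-sensitive pore of neurons, had a log2 fold change of 0.00 between BAC and DNP, with all 9 libraries between 39.3 and 59.0 CPM.

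Several members that were lower in DNP had BAC means between those of DNP and CON. Kcnk9 had a log2 fold change of 0.79 ± 0.36 in BAC versus DNP (SE, edgeR adjusted p = 0.998), Kcnd3 of 0.58 ± 0.30 and Kcna3 of 0.69 ± 0.37, with the same adjusted p. Both comparisons share the DNP libraries, so a low DNP mean enters them with opposite sign. In Kcnk9 and Kcnd3, DNP 1, BAC 1 and BAC 3, the libraries with brainstem markers, were the highest among DNP and BAC. BAC holds more of these libraries than DNP, and their part in the BAC means was not tested. Kcnma1 (-0.19) differed from DNP by less than its standard error.

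BAC versus CON compares treated pain-model mice with healthy mice and shares CON with the first comparison. None passed an adjusted p of 0.05 by edgeR (0% of all genes) or DESeq2 (0.546% of all genes). The smallest adjusted p was 0.628 by edgeR. At an unadjusted p under 0.05, 3 members were counted (3.80%) beside 7.76% of all genes. In BAC 2 were higher (4.46% of all genes) and 1 lower (3.3%). The groups did not overlap in 7 members (8.86%), beside 13.4% of all genes, 3 of them higher in BAC (7.21% of all genes) and 4 lower (6.23%). By DESeq2, 6 members were at an unadjusted p under 0.05, beside 9.19% of all genes. The median log2 fold change of the members was -0.18, against -0.02 in all genes, with 55 of 79 members lower (69.6%, beside 51.8% of all genes), 29 of 37 Kv pore subunits and 8 of 10 calcium-activated and Slo genes among them.

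Kcnk13 had a log2 fold change of 0.87 ± 0.23 (SE, edgeR adjusted p = 0.628) in BAC versus CON, and of 0.20 with the scores as covariates. That of Kcnma1 was -0.86 ± 0.24 (SE, edgeR adjusted p = 0.628). Of the calcium-activated genes, Kcnmb4 and the SK channel gene Kcnn2 also lay below CON without overlap, at adjusted p of 0.674 and 0.638 in edgeR. Kcnn2 measured 45.7, 45.3 and 57.4 CPM in CON and 42.5, 36.7 and 31.7 CPM in BAC. With the scores as covariates the log2 fold change was 0.27 ± 0.38 (SE) for Kcnmb4 and -0.50 ± 0.33 for Kcnn2. Kcnh8, a Kv12 subunit of low level, measured 0.464, 0.214 and 0.562 CPM in CON, 2.25, 0.614 and 0.263 CPM in DNP and 2.18, 0.828 and 3.78 CPM in BAC. Its 3 highest values were those of DNP 1, BAC 1 and BAC 3. Kcnh8 met the count minimum only through DNP 1 and the BAC libraries. That rule favours a higher value in BAC than in CON, so this difference gives no support of its own. The log2 fold change of Kcnh8 in BAC versus CON, 2.43 ± 0.85 (SE, edgeR adjusted p = 0.628), became -0.18 with the scores as covariates.

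**Figure D3:**
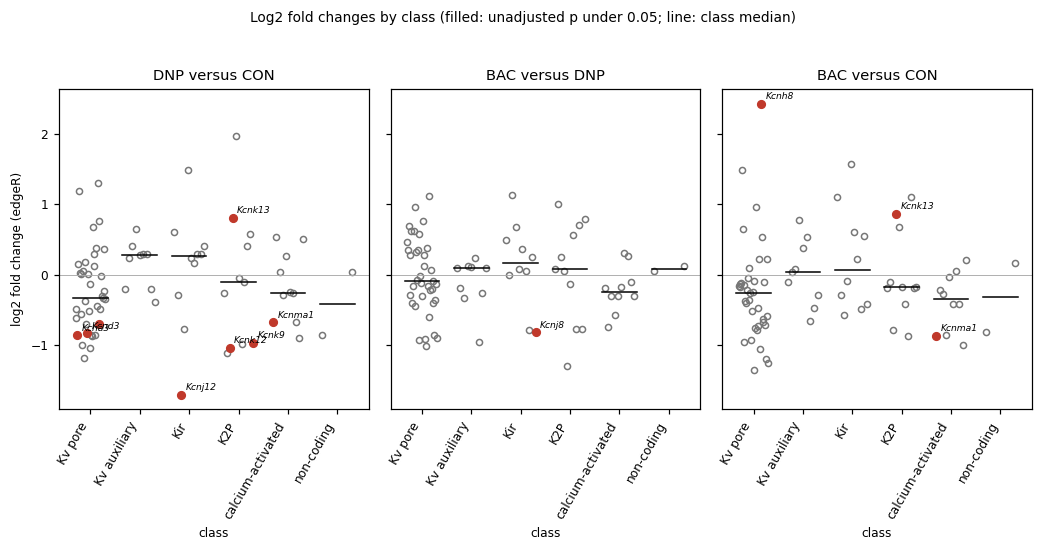
Log2 fold changes (edgeR) of the 79 members by class in the 3 comparisons. Circles are genes, filled at an unadjusted p under 0.05, and lines are class medians. The Kv pore median was -0.33 in DNP versus CON, and 8, 1 and 3 genes are filled in the respective panels.

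Many members differed widely among mice of a group. Within CON, DNP and BAC, 62.0%, 59.5% and 57.0% of the members had a highest library more than 2-fold above the lowest, beside 30.5%, 26.1% and 28.7% of all genes. Over the 9 libraries the median ratio of highest to lowest was 4.28 among members, and 13 members passed 10-fold. CON 2 was the lowest library for 26 of the 79 members (32.9%, beside 19.0% of all genes).

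Kcnh3 and Kcnh4, Kv12 subunits of forebrain neurons, and Kcnj4 were lowest in the 4 libraries with the least cortex and hippocampus marker RNA. Kcnj4 measured 158, 20.3 and 117 CPM in CON, 26.3, 211 and 124 CPM in DNP and 3.41, 204 and 2.90 CPM in BAC. Kcnh3 measured 228, 24.7 and 190 CPM in CON, 27.4, 257 and 196 CPM in DNP and 5.01, 248 and 3.78 CPM in BAC. Kcnh4 measured 47.2, 4.42 and 36.8 CPM in CON, 6.23, 52.3 and 49.6 CPM in DNP and 1.31, 50.5 and 1.57 CPM in BAC. In each, BAC 1 and BAC 3 were lowest, followed by CON 2 and DNP 1, and the other 5 libraries were high. The ratio of the highest to the lowest library was 72.9 in Kcnj4, 68.1 in Kcnh3 and 40.0 in Kcnh4. The silent subunits Kcnv1 and Kcnf1 (ratios 41.5 and 20.4) and the Kv4 partner Kcnip2 (ratio 13.7) had the same 4 lowest libraries. None of these genes had an unadjusted p under 0.05 in any of the 3 comparisons of the main fit. With the scores as covariates Kcnv1 did in BAC versus CON (log2 fold change -2.48 ± 1.03, SE, edgeR adjusted p = 0.450). Kcnh3 shares exon sequence with Mcrs1 on the opposite strand, and the libraries do not keep strand.

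Promoter sequence of Kcnj4 and Kcnh4 is shown because the levels of these genes moved together across the libraries. The 250 bases before their RefSeq starts (GRCm38.p6) are chr15:79505242-79505491 and chr11:100759779-100760028, both on the minus strand, with GC box letters in capitals.
Kcnj4: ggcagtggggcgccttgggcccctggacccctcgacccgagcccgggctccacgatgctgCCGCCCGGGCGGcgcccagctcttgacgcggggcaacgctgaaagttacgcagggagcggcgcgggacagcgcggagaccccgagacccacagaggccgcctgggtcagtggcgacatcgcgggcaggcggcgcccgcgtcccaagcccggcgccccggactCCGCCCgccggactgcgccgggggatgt
Kcnh4: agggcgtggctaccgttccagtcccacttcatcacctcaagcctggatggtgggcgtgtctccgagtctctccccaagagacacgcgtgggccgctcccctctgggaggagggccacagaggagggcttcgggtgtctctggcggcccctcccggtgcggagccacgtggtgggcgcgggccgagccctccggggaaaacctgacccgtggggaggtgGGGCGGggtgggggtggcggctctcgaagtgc
The window of Kcnj4 held 3 GC boxes and 35 CpG dinucleotides, and that of Kcnh4 1 GC box and 20 CpG, where the median over all windows was 6 CpG. Neither held TATAAA or TGACGTCA.

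The opposite pattern was found in Kcng4 and Kcnc1, among others. Kcng4, a silent subunit, measured 8.03, 160 and 31.1 CPM in CON, 96.1, 5.60 and 8.80 CPM in DNP and 98.8, 3.11 and 85.3 CPM in BAC. Kcnc1 measured 343, 1074 and 436 CPM in CON, 454, 224 and 251 CPM in DNP and 719, 222 and 495 CPM in BAC. In both genes CON 2 was highest, and DNP 1, BAC 1 and BAC 3 followed. Kcnj12, the acid-sensitive leak channel Kcnk3, Kcnk10, Kcnk12 and Kcnt1 were also highest in CON 2, the library with the most cerebellar marker RNA. The erg subunit Kcnh2 was instead highest in DNP 1 (159 CPM), BAC 3 (154 CPM) and BAC 1 (114 CPM), against 43.4 to 68.5 CPM in the other 6. With such spread, the log2 fold change of -0.99 for Kcnc1 in DNP versus CON had an adjusted p of 0.527 in edgeR.

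**Figure D4:**
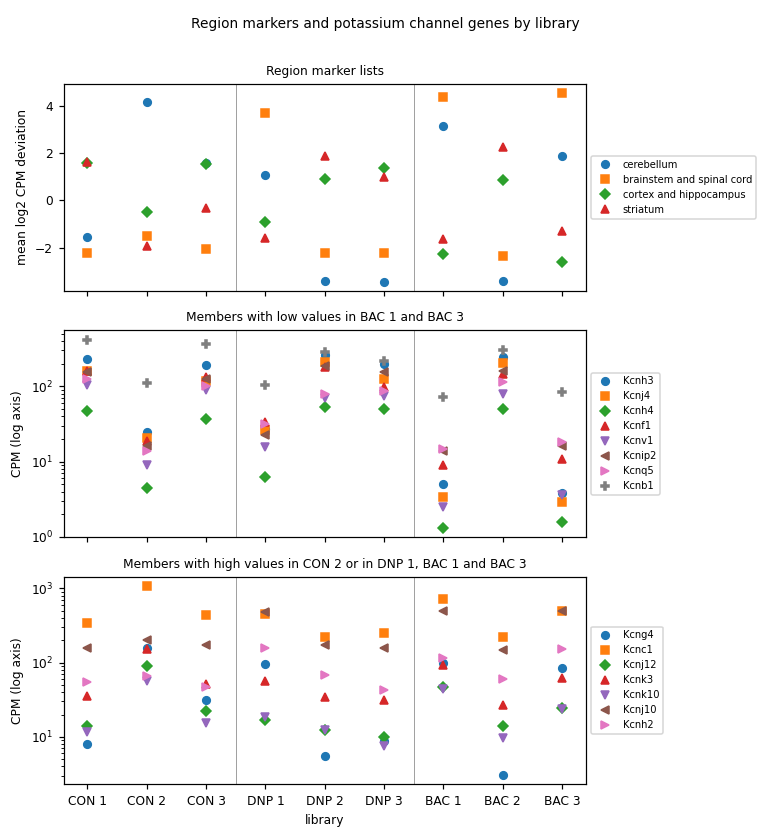
Region marker scores (top, mean log2 CPM deviation from the 9-library mean) and CPM on a log axis of 8 members low in BAC 1 and BAC 3 (middle) and 7 members high in CON 2 or in DNP 1, BAC 1 and BAC 3 (bottom), by library. Kcnj4 ranged from 2.90 to 211 CPM and was low where the cortex and hippocampus score was low, and Kcng4 ranged from 3.11 to 160 CPM and was highest in CON 2.

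**Figure D5:**
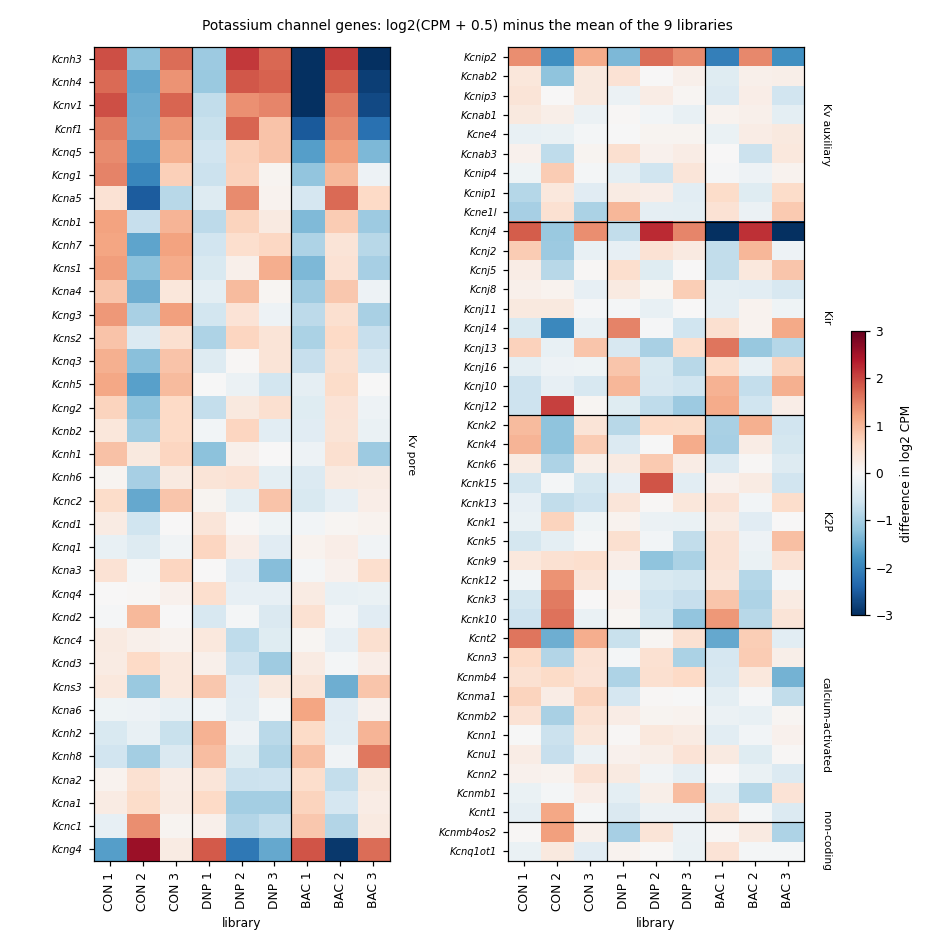
Log2(CPM + 0.5) of 77 members minus the gene's mean over the 9 libraries, with genes in rows by class and libraries in columns. The columns of CON 2, DNP 1, BAC 1 and BAC 3 stand apart from the other 5 in many rows, with Kcnh3, Kcnh4, Kcnv1 and Kcnj4 lowest in BAC 1 and BAC 3 and Kcng4 highest in CON 2.

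With the cerebellum and brainstem scores as covariates, a fit that leaves 4 residual degrees of freedom, 19 members were in DNP versus CON at an unadjusted p under 0.05 (24.1%, beside 12.5% of all genes), 2 higher and 17 lower. Of these, 12 of the lower ones were Kv pore subunits. The shares of all genes higher and lower at this p were not taken in this fit or in those below. The median log2 fold change here was -0.72 in members and 0.02 in all genes. Kcnt2, a sodium-activated channel gene, had a log2 fold change of -2.90 ± 0.70 (SE) and Kcnk2 of -1.24 ± 0.34, both with an edgeR adjusted p of 0.350. That of Kcnt2 was -0.90 ± 0.79 without the covariates and -1.13 ± 0.24 without the 4 libraries that stood apart. The members counted in the main comparison and here numbered 4, which is 50.0% of the 8 and 21.1% of the 19. Kcnma1, Kcna3 and Kcnk9 were among them. The scores differed between the groups. Brainstem scores were -2.23 to -1.51 in CON and 3.71 in DNP 1, and cerebellum scores were -1.57 to 4.16 in CON and -3.42 and -3.43 in DNP 2 and DNP 3. This fit therefore cannot fully separate region from group.

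Leaving out DNP 1, BAC 1 and BAC 3 gave 12 members in DNP versus CON (beside 9.69% of all genes), 11 of them lower. Leaving out CON 2 too gave 23 (29.1%, beside 17.2% of all genes), 2 higher and 21 lower, of which 16 were Kv pore subunits. The smallest adjusted p was then 0.0807. Without the 4 libraries the axonal genes Kcna1 and Kcna2 had log2 fold changes of -1.28 and -0.81, the fast-spiking genes Kcnc4 and Kcnc1 of -0.74 and -0.71, and Kcnq3 of -0.74. For Kcnc1 the direction was not stable, as its log2 fold change was 0.16 ± 0.31 with the covariates (SE, edgeR adjusted p = 0.847). Here CON and DNP have 2 libraries each and BAC 1, which is assumed to vary like the others. The members shared between the covariate fit and this one numbered 13, which is 68.4% of the 19 and 56.5% of the 23.

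In BAC versus DNP, 7 members (8.86%, beside 3.9% of all genes) were at an unadjusted p under 0.05 with the covariates, 4 (beside 2.04%) without DNP 1, BAC 1 and BAC 3, and 9 (beside 5.86%) without CON 2 too. The 3 fits shared Kcnk9. It was higher in BAC, at log2 fold changes of 0.53, 0.90 and 0.91. The fits that leave out libraries hold BAC 2 as the only BAC library. Against DNP both compare it with the same DNP 2 and DNP 3, so 0.90 and 0.91 are not separate observations. In BAC versus CON, the same 3 fits gave 20 members (25.3%, beside 10.9%), of which 17 were lower, 4 (5.06%, beside 4.19%), all lower, and 16 (20.3%, beside 9.16%), of which 14 were lower. The 4 were Kcna1, Kcna2, Kcnk9 and Kcnk12. None passed an adjusted p of 0.05 in these fits.

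Of 27 genes for proteins that bind potassium channels or drive potassium transport, 26 were tested. In DNP versus CON 6 were at an unadjusted p under 0.05 (23.1%, beside 11.2% of all genes), all lower (5.46% of all genes), and 0 passed the adjusted threshold. Among them were the Kv4 partner Dpp10 (log2 fold change -0.40), the Kv1 complex genes Lgi1 (-0.57), Adam22 (-0.40) and Dlg2 (-0.52), and the sulfonylurea receptor Abcc8 (-0.90). At this p 1 partner gene was counted in BAC versus CON (3.85%, beside 7.76% of all genes) and 0 in BAC versus DNP (2.37% of all genes).

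The 13 names below the count minimum had 0 to 17 counts in any library and were not described further. Reads of Kcnma1, Kcnd3, Kcnh7, Kcnj13, Kcnk1, Kcnk2, Kcnk3, Kcnmb4, Kcnn2, Kcnq1 and Kcnt2 are also uncertain, as exons of other genes lie on their opposite strand. Kcnq1 had 96 counts over the 9 libraries, and Kcnq1ot1 opposite it had 3317. Counts were also high for Gigyf2 opposite Kcnj13 (7707), Gm9899 opposite Kcnk3 (2773) and Gca opposite Kcnh7 (2386). The gene opposite Kcnma1, 4930519K11Rik, had 233 counts over the 9 libraries, and Kcnd3os, opposite Kcnd3, had 217.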

How the data were processed

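Libraries of whole-brain RNA came from 3 mice each of CON, DNP and BAC. They are paired-end and do not keep strand, and the labels gave each sample its group. The authors filtered the reads, aligned them to GRCm38 with HISAT2 2.1.0 and quantified genes with StringTie 1.3.3b, per the labels and methods. Of the 2 deposited tables, one gives unnormalized counts and the other FPKM. The authors' FPKM values equal the count divided by a gene length and the library total, as checked in 12216 genes. The treatment of multi-mapping reads is not given in the sources used here.

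Counts were analysed in R 4.3.3 with edgeR 4.0.16. The 18501 genes kept by filterByExpr (minimum count 10) were fitted over the 9 libraries with TMM normalization and the quasi-likelihood test, with Benjamini-Hochberg adjustment over all tested genes and a threshold of 0.05. Precision follows from library totals of 13107382 to 16008129 counts and from variation between mice (biological coefficient of variation 36.5%). Libraries of the same group differed beyond counting error (chi-square per degree of freedom 15.0 to 116). CPM are counts scaled to TMM-adjusted library size. Alternatives were DESeq2 1.42.0, other size factors and filters, limma 3.58.1 on log2(FPKM + 1) and log2(FPKM + 0.1), the 2 groups alone, a replicate block, marker scores as covariates and each library left out. Leaving out DNP 1, BAC 1 and BAC 3, with or without CON 2, was chosen after seeing the data. A marker score is the mean log2 CPM deviation of a list from the 9-library mean. The fit was tested on simulated data.

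The members, classes, marker and partner lists were chosen with earlier results of these data known. Genes named are members at an unadjusted p under 0.05, the 2 highest per class by FPKM, members of counts of 5 or fewer, and 20 well-known channel genes. Other genes, such as Kcnh2, Kcnh3, Kcnh4, Kcnf1, Kcng4, Kcnv1, Kcnk3, Kcnk10, Kcnt2, Kcnc4 and Kcnj5, were chosen after their values were seen. Some genes that this rule names are not reported here by name, though counts include them. The marker lists comprise 13 lists, of which GABAergic interneurons (6 of 7 higher in DNP, 0 at an unadjusted p under 0.05) and striatum (7 of 7 higher, 0 at that p) are not described further.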

Additional observations from a re-analysis of the deposited data

How the results depend on the processing

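No member passed an adjusted p of 0.05 in any of the 3 comparisons under any of 21 alternatives. The smallest adjusted p was 0.0807 in DNP versus CON without the 3 libraries with brainstem markers and CON 2. Counts at an unadjusted p under 0.05 moved most where libraries or scores changed, and the cause was not tested. In DNP versus CON the main count of 8 became 5 with limma at either pseudocount, 5 with the 2 groups compared alone (76 members tested), 4 with the replicate block, 19 with the scores as covariates and 23 without the 3 libraries and CON 2. Leaving out 1 library gave 4 (without DNP 2, beside 9.63% of all genes) to 10 (without DNP 1, beside 9.38%). With limma 6.33% of members were counted, beside 10.8% of all genes at log2(FPKM + 1) and 11.0% at log2(FPKM + 0.1). With the 2 groups alone it was 6.58% beside 10.2%, and with the replicate block 5.06% beside 9.12%. In BAC versus DNP the main count of 1 became 2 with DESeq2, with no filter, with limma at either pseudocount and with the replicate block, 3 with the 2 groups alone, 7 with the covariates, 4 without the 3 libraries and 9 without CON 2 too. Each count of 2 was 2.53% of members. Beside it stood 2.96% of all genes with DESeq2, 2.37% with no filter and 2.06% with the replicate block. With limma it was 2.34% at log2(FPKM + 1) and 2.37% at log2(FPKM + 0.1). The 3 with the 2 groups alone were 3.80%, beside 2.44%. Leaving out 1 library gave 1 to 12, with 11 without DNP 1 (10 higher, 13.9% beside 7.31% of all genes) and 12 without BAC 2 (10 lower, 15.2% beside 7.81%). In BAC versus CON the main count of 3 became 6 with DESeq2, 7 with the 2 groups alone (77 tested), 20 with the covariates and 16 without the 3 libraries and CON 2. With DESeq2 it was 7.59% of members beside 9.19% of all genes, and with the 2 groups alone 9.09% beside 6.98%. Leaving out 1 library gave 2 (without BAC 3, 2.53% beside 3.18%) to 24. There were 5 without CON 1 (6.33% beside 6.03% of all genes), 15 without CON 2 (19.0% beside 9.24%) and 8 without DNP 1 (10.1% beside 8.95%). Without BAC 1 there were 6 (7.59% beside 6.64%) and without BAC 2 there were 24 (30.4% beside 14.2%).

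The covariates turned the log2 fold change of Kcnk12 in DNP versus CON to 0.14, of Kcnj12 to 0.84 and of Kcnh8 in BAC versus CON to -0.18. The other 249 values of the 12 log2 fold changes at an unadjusted p under 0.05 kept their direction. Other members were not counted here, and with the covariates Kcnc1 in DNP versus CON went from -0.99 to 0.16 and Kcnk1 from -0.26 to 0.40. Kcnd2, lower in DNP than CON without overlap, was at 0.35 with the covariates. Kcnmb4, lower in BAC than CON without overlap, was at 0.27. The median of the members in DNP versus CON ranged from -0.72 to 0.07 over the alternatives. Replicate numbers are not shown to pair mice: same-number correlations ranged from -0.58 to 0.56, and 2 of the 9 pairs of equal number (3 per comparison), both in BAC versus DNP, held the best match. Depth limits the low members, such as Kcnh8 and Kcnk15, to few counts per library.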
